A study of Mus musculus with 12 samples.

Results

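The Klf family of transcription factors was followed through the differentiation of primary mouse keratinocytes, for 10 genes chosen by name: Klf2, Klf3, Klf4, Klf5, Klf6, Klf7, Klf9, Klf10, Klf11 and Klf13. Of these 10, 6 were among the 7978 genes of the authors' deposited expression table, and 9 were among the 7992 genes with a peak of N6-methyladenosine (m6A, a methyl mark inside mRNA) on at least 1 day. Together they held 29 of 18423 day 4 peaks, 31 of 19920 day 0 peaks and 4 of 2561 sites called as changed in methylation. The cells came from newborn mouse epidermis and had been kept on 3T3 fibroblast feeders, stopped from dividing with mitomycin C, up to passage 3 in medium of low calcium. Differentiated cells were harvested at day 4 of a calcium shift and undifferentiated cells at day 0. From each day, 3 libraries were made after pull-down with an anti-m6A antibody and 3 from input RNA, 12 in all. The labels give no genotype or strain, and nothing in them ties replicates to separate animals or cultures. The DESeq2 p-values of expression thus measure only the spread between these libraries, which may be technical. How the replicates entered the p-values of peaks and of methylation sites is not stated, so those may not measure that spread. The values are the authors' comparisons and peaks, with no value per library, so each gene is given by the authors' estimate and its error, and library depth is unknown.

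Klf proteins share a run of C2H2 zinc fingers at the carboxyl end that reads GC-rich boxes and CACCC elements in DNA, while their other parts recruit activators or repressors. In skin they are best known from Klf4, which the mouse needs to build the epidermal barrier, and from Klf5, a factor of proliferating epithelial cells. An m6A mark is placed on nascent mRNA by a methyltransferase complex and is read by proteins that can change how long the transcript lasts or how well it is translated.

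Whether the Klf transcripts changed with differentiation was asked of the input libraries. The 6 listed members, Klf2, Klf4, Klf5, Klf9, Klf11 and Klf13, all fell at day 4 relative to day 0, and 0 rose. The table does not name its direction, which was read as day 4 over day 0 from genes with peaks on a single day. It holds genes at a DESeq2 adjusted p under 0.05, which was 53.5% of the 14924 genes that the adjustment implies were tested, 26.4% of them lower and 27.1% higher at day 4. The share of members listed, 6 of 10, was thus near that of all genes. The share that fell, also 6 of 10, stood against 26.4% of all genes tested, a difference that was not tested since the members were chosen by name with results known. Each of the 10 was in at least 1 of the authors' lists, which a gene tested need not be. Klf1, Klf8, Klf12, Klf14, Klf15 and Klf17 were not in the expression table and are not among the 10. The median log2 fold change of the 6 was -0.99, against 0.26 over all 7978 listed genes and -0.79 over the 3938 that were lower. Klf3, Klf6, Klf7 and Klf10 were not listed, which means that they were not called or not tested. The largest unadjusted p in the table was 0.0267, so a count at an unadjusted p under 0.05 could not be made. Because RNA was taken from whole cultures, fewer cells of a type and less RNA per cell cannot be told apart.

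Klf5, which in the mouse gut and skin marks the proliferating compartment, had the clearest fall. Its level at day 4 was 36.2% of that at day 0 in the authors' deposited table (95% interval 30.2% to 43.4%, log2 fold change -1.47, SE 0.13, DESeq2 adjusted p = 7.2e-27). A larger fall than that of Klf5 was seen in 21.4% of the genes that were lower. Klf9, a factor induced by glucocorticoid that restrains proliferation in human keratinocytes, stood at 46.6% of its day 0 level in the authors' deposited table (40.3% to 53.7%, log2 fold change -1.10, SE 0.11, DESeq2 adjusted p = 1.8e-24). Klf5 and Klf9 had mean normalized counts of 961 and 1055 over the compared libraries in the authors' deposited table, above the median of 509 over all listed genes.

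Klf13, known in lymphocytes as an activator of the chemokine gene Ccl5, fell to 54.1% of its day 0 level in the authors' deposited table (42.7% to 68.5%, log2 fold change -0.89, SE 0.17, DESeq2 adjusted p = 1.4e-06). Klf4, the barrier factor, fell by less, to 67.3% of its day 0 level in the authors' deposited table (56.2% to 80.6%, log2 fold change -0.57, SE 0.13, DESeq2 adjusted p = 5.6e-05). Klf4 had the highest mean normalized count of the 6, 2815, above that of 90.4% of listed genes, a comparison that is not per length. Klf11, a repressor inducible by TGF-beta that works through the Sin3 corepressor, fell least in the authors' deposited table (log2 fold change -0.45, SE 0.14, DESeq2 adjusted p = 0.00384), to 73.3% of day 0.

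Klf2, best known from endothelium and resting T cells, had the lowest estimate and the least certain one. Its log2 fold change was -2.81 with an SE of 1.03 in the authors' deposited table (95% interval -4.83 to -0.79, DESeq2 adjusted p = 0.0137), at a mean normalized count of 4.41, below which lay 2.53% of listed genes. Without Klf2, the 5 remaining members had a median log2 fold change of -0.89, against -0.32 over the 6404 listed genes whose mean normalized count reached 100, of which 53.7% were lower. Those 3438 lower genes had a median of -0.72, which is the nearer comparison since all 5 members were lower. Among those 5, the 95% intervals of Klf5 and of Klf9 did not overlap those of Klf4 and Klf11, while the interval of Klf13 overlapped all others. The interval of Klf2 overlapped those of Klf5, Klf9, Klf13 and, narrowly, Klf4.

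**Figure D1:**
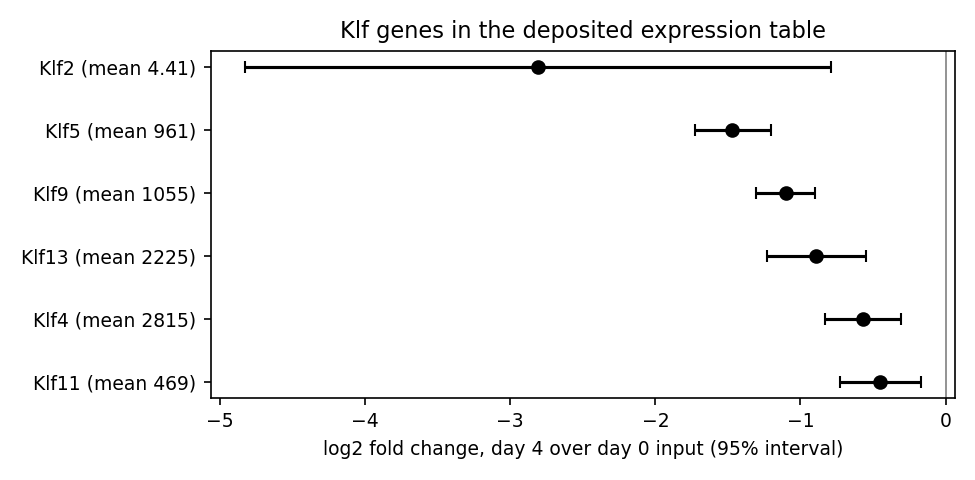
Log2 fold change of day 4 over day 0 input (x axis) for the 6 Klf genes of the authors' deposited table (y axis, with the mean normalized count), with points for the estimates and bars for 95% intervals from the SE. All 6 intervals lie below 0, and the interval of Klf2, at a mean of 4.41, is the widest.

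**Figure D2:**
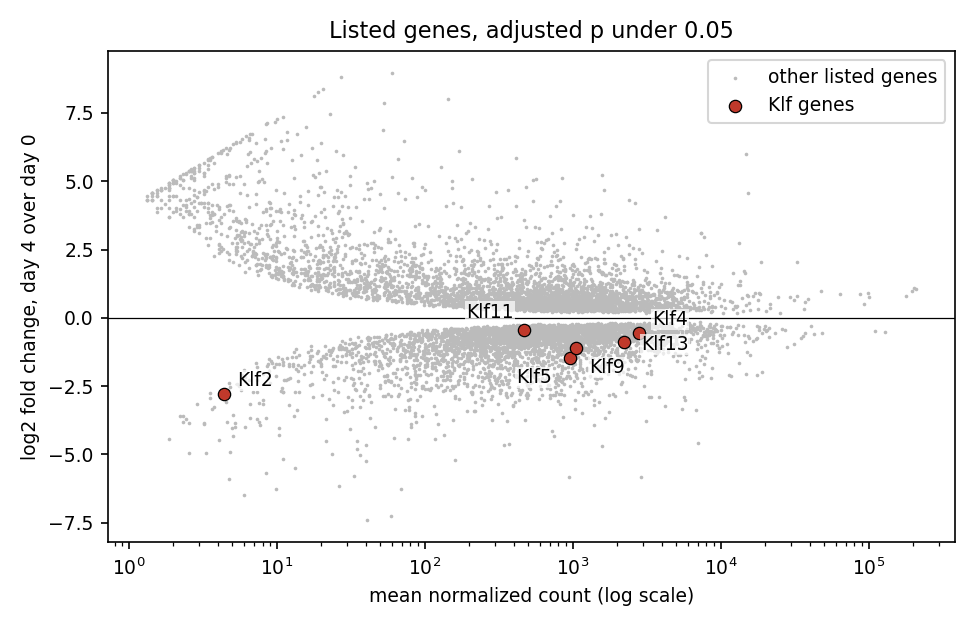
Log2 fold change of day 4 over day 0 (y axis) against the mean normalized count (x axis, log scale) for all 7978 listed genes (grey) and the 6 listed Klf genes (red). All 6 Klf genes lie below 0, Klf2 at the left with a mean of 4.41 and the other 5 at means from 469 to 2815.

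The promoters of 4 members that fell are shown because Klf proteins themselves read boxes of the kinds marked in them; Klf2, at a mean normalized count of 4.41, is given by its counts only. Windows from 250 bases before to 50 bases after the gene start were found for 8 of the 10 members among the RefSeq promoters (GRCm38.p6, which mm10 is built on), and not for Klf5 and Klf10. In 7 of the 8 the window starts from the 5′ end of the gene's span, and in Klf7 from another start, 956 bases inside it. Capitals mark matches to CACCC and to GGGCGG on either strand, so that GGGTG and CCGCCC are the same motifs read from the other strand. Runs of adjoining capitals hold matches that overlap or abut each other. All windows are written 5′ to 3′ on the strand of the gene.
Klf4, chr4:55532426-55532725, minus strand: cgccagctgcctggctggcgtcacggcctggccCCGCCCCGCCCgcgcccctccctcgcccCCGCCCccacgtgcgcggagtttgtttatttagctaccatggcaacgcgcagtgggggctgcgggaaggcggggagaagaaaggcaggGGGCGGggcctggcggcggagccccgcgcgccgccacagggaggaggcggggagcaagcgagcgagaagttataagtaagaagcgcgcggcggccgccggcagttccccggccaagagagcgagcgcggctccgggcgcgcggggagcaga
Klf9, chr19:23140976-23141275, plus strand: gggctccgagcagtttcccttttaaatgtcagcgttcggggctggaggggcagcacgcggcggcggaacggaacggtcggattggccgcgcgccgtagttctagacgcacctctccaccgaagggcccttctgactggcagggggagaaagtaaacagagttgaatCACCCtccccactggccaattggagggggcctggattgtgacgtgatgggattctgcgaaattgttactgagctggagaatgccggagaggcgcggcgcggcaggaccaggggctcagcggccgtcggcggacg
Klf11, chr12:24651121-24651420, plus strand: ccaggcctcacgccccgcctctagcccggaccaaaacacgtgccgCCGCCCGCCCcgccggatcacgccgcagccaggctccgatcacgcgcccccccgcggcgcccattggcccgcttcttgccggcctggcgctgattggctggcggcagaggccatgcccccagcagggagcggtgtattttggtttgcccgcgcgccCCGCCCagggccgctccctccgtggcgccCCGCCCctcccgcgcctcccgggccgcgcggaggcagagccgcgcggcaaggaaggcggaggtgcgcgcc
Klf13, chr7:63938866-63939165, minus strand: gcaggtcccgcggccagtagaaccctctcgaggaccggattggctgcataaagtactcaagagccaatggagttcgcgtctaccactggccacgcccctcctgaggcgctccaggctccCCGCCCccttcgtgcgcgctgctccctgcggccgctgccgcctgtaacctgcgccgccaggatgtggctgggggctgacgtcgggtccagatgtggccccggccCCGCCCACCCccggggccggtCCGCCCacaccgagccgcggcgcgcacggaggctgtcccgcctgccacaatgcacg
GGGCGG was present in 7 of the 8 windows, against 35.7% of 32851 RefSeq windows, and CACCC in 5 of 8, against 57.5%. Without Klf7 these counts were 6 of 7 and 4 of 7. The Klf4 window held 4 GGGCGG matches and 0 CACCC matches. Klf11 likewise had 4 and 0, Klf13 had 3 and 1, and Klf2 had 2 and 1. The Klf9 window was the exception, with 0 GGGCGG matches and 1 CACCC match. The windows were rich in G and C, at 74.3% in Klf4, 77.7% in Klf11, 72.0% in Klf13, 69.3% in Klf2 and 63.3% in Klf9, against a median of 52.7% over all windows, and the part of this composition in the GGGCGG matches was not tested. Klf3, which was not in the expression table, had the most matches of the 8 members, 6 GGGCGG and 5 CACCC. No Klf peak lay in its promoter window.

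Where m6A lay on the Klf transcripts was asked of the peak lists. Peaks were listed in 8 members at day 4 and in 9 at day 0, the difference being Klf7, and Klf2 had none on either day. Among the 6 members of the expression table, 5 had a peak at day 4 and the same 5 at day 0, against 55.8% of listed genes at day 4 and 59.5% at day 0. The median of their mean normalized counts was 1008, against 509 over all listed genes, and Klf2, without a peak, stood at 4.41. The part of the RNA level in the number of peaks was not tested. Members with peaks averaged 3.62 peaks at day 4 and 3.44 at day 0, against 2.65 and 2.70 over all genes with peaks. Of the 29 day 4 peaks, 27 shared at least 1 bp on the same strand with a day 0 peak (93.1%, against 78.9% of all day 4 peaks), and 5 had the same coordinates on both days. Of the 31 day 0 peaks, 24 overlapped a day 4 peak (77.4%, against 70.2% of all day 0 peaks). All 60 peaks lay inside the RefSeq span of their gene. Coordinates are those of mm10, and spans run along the genome, so that the longer ones may cross introns. The bases under the peaks were not analysed here.

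Enrichment scores are the authors' own and carry no stated scaling, so they are ranked within a day and only set side by side between days. Most Klf peaks scored below the middle of their list. The median score was 9.73 for members at day 4, against 17.1 for all day 4 peaks, and 11.3 for members at day 0, against 21.4 for all day 0 peaks. Above the median of the list lay 10 of 29 member peaks at day 4 and 9 of 31 at day 0. The top 10% of the list held 1 member peak on each day, and both were in Klf13.

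That Klf13 peak was chr7:63890249-63891547 at day 4 and chr7:63889999-63891547 at day 0. Along the genome it stopped 3898 bases before the annotated 3′ end at day 4 and 3648 bases before it at day 0. On each day it was the Klf13 peak farthest from that end. It scored 189 at day 4 (higher than 95.8% of peaks, the authors' unadjusted p = 4.8e-50) and 163 at day 0 (90.8%, the authors' unadjusted p = 1.6e-89). The stretch that was a single peak at day 0 was listed in 2 parts at day 4, the smaller one, chr7:63890099-63890198, with a score of 6.68. The other Klf13 peaks were weaker, from 7.60 to 13.1 at day 4 and from 3.12 to 16.1 at day 0. In RefSeq the Klf13 span overlaps those of Gm27252, a long noncoding RNA gene, and E030018B13Rik, a protein-coding gene. Whether the Klf13 peaks lie in the shared parts is not given here.

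Klf4 had more peaks than any other member, 6 on each day, a number reached by 7.85% of genes with peaks at day 4 and 8.55% at day 0. They ran from 449 bases after the annotated 5′ end to 499 bases before the 3′ end at day 4, and from 349 to 499 bases at day 0. The stretch toward the 3′ end carried the highest score of the gene on both days. At day 4 it was listed in 2 parts, chr4:55527636-55528034 with a score of 17.7 and chr4:55528135-55529751 with a score of 2.49, while at day 0 it was the single peak chr4:55527636-55529751 with a score of 19.8. The remaining Klf4 peaks were weak on both days, with scores from 1.71 to 4.64 at day 4 and from 1.90 to 6.34 at day 0. Near the 5′ end, chr4:55531977-55532026 scored 1.71 at day 4 (the authors' unadjusted p = 0.00829) where chr4:55531927-55532026 scored 5.03 at day 0 (the authors' unadjusted p = 1.2e-21), and the neighbouring day 0 peak chr4:55532077-55532126, with a score of 6.34, had no listed day 4 peak over it.

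Klf6, a widely expressed early response factor, and Klf10, a TGF-beta inducible repressor related to Klf11, each had 4 peaks per day, and every one of them met a peak of the other day. In Klf6 the peak with the highest score began 198 bases after the 5′ end on both days. It was chr13:5861687-5865257 with a score of 23.6 at day 4 and chr13:5861687-5865306 with a score of 46.8 at day 0. The Klf6 peak chr13:5867467-5867913 had the same coordinates on both days, with scores of 14.2 at day 4 and 26.3 at day 0. In Klf10 the leading peak differed between the days. At day 4 it was chr15:38296970-38297267, with a score of 19.0, and at day 0 it was chr15:38294438-38294487, with a score of 33.8, a position that scored 6.68 at day 4.

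Klf9, Klf5 and Klf11 carried fewer or broader peaks. In Klf9 the stretch from 23164835 to 23165922 on chromosome 19 was listed at day 4 in 2 parts with scores of 43.1 and 35.2, and at day 0 as a single peak with a score of 40.9. A second Klf9 peak, chr19:23141869-23142066, lay 643 bases after the 5′ end and scored 10.9 at day 4 and 9.09 at day 0. Klf5 had 2 peaks on each day. The one at its 3′ end, which stopped 3 bases short of the annotated end, was chr14:99313360-99313409 with a score of 34.8 at day 4 and chr14:99313311-99313409 with a score of 13.0 at day 0. The other, chr14:99301785-99302080 at day 4 and chr14:99301440-99302130 at day 0, scored 9.73 at day 4 and 8.82 at day 0. In Klf11 the peak of longest span, 4854 bp on both days, scored 52.4 at day 4 and 43.3 at day 0. Klf11 had 3 peaks at day 4 and 5 at day 0, and the day 0 peak nearest its 3′ end, chr12:24661538-24661637 with a score of 38.7, had none over it at day 4.

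Klf3, a repressor that works through the CtBP corepressors, had 3 peaks on each day and scores of at most 9.16 at day 4 and 11.3 at day 0. Its peak chr5:64822346-64823014, with a score of 2.44 at day 4, met no day 0 peak, and its peak chr5:64829834-64829883, with a score of 3.00 at day 0, met no day 4 peak. Klf7, studied mostly in neurons, had a single peak at day 0, chr1:64079083-64079132, with a score of 2.72 (the authors' unadjusted p = 6.3e-04) and none at day 4. Counting all members, 2 day 4 peaks met no day 0 peak, in Klf3 and Klf4, and 7 day 0 peaks met no day 4 peak, in Klf3, Klf4, Klf7, Klf11 and Klf13. Peaks without a match were thus not more frequent in members than in the lists. A match was found for 93.1% of member peaks at day 4 and 77.4% at day 0, against 78.9% and 70.2% of all peaks. A peak that is not listed need not be a loss of methylation, and the part of the RNA level in the listing of peaks was not tested. Of the 5 members with unmatched day 0 peaks, Klf4, Klf11 and Klf13 fell in level, while Klf3 and Klf7 were not in the expression table. Klf5 and Klf9, at 36.2% and 46.6% of their day 0 levels, had 0 day 0 peaks without a match.

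**Figure D3:**
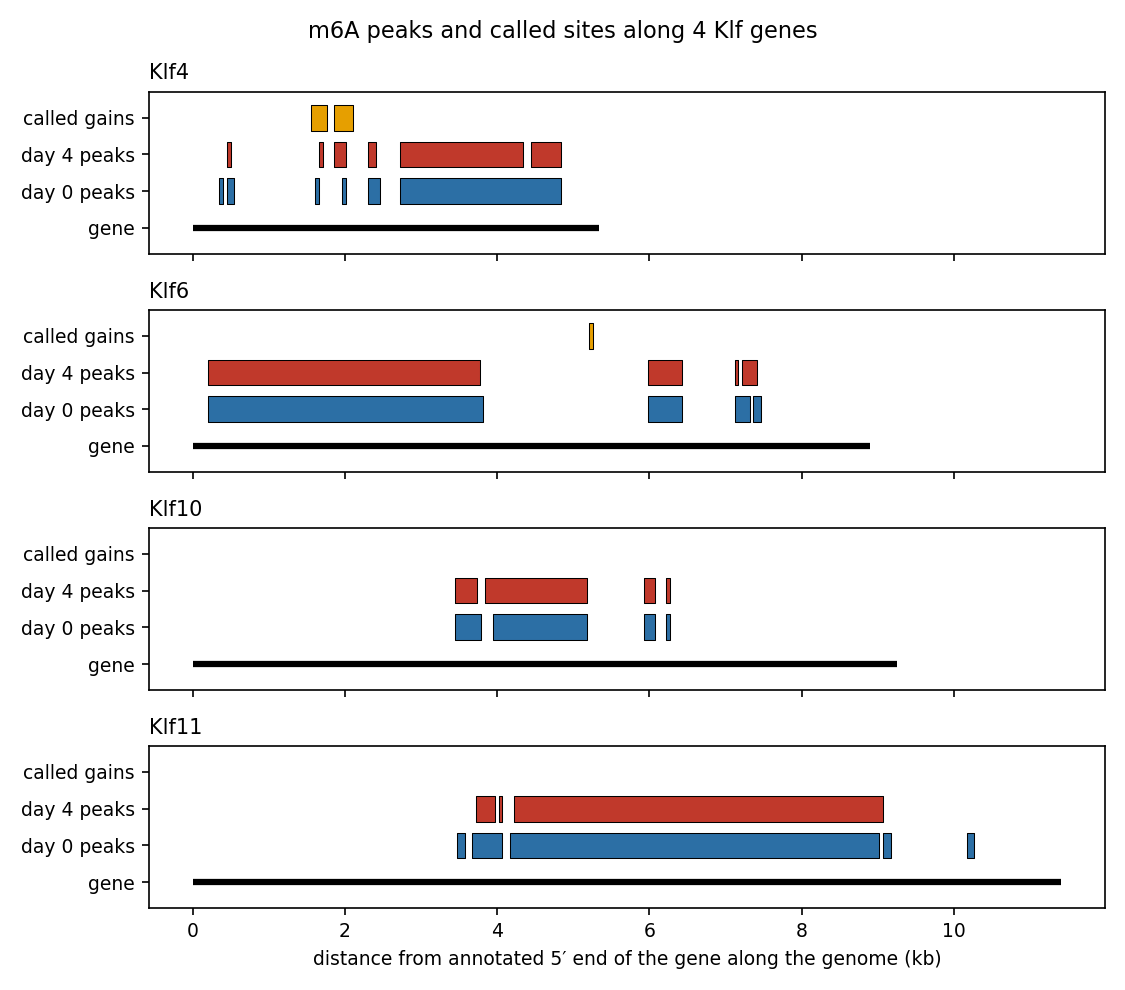
Positions of day 4 peaks (red), day 0 peaks (blue) and sites called as gains of methylation (orange) along Klf4, Klf6, Klf10 and Klf11, as distance along the genome from the annotated 5′ end in kb (x axis), with the gene as a black line. Klf4 has 2 called gains, both at weak peaks upstream of its strongest stretch, and Klf6 has 1 called gain between its peaks.

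**Figure D4:**
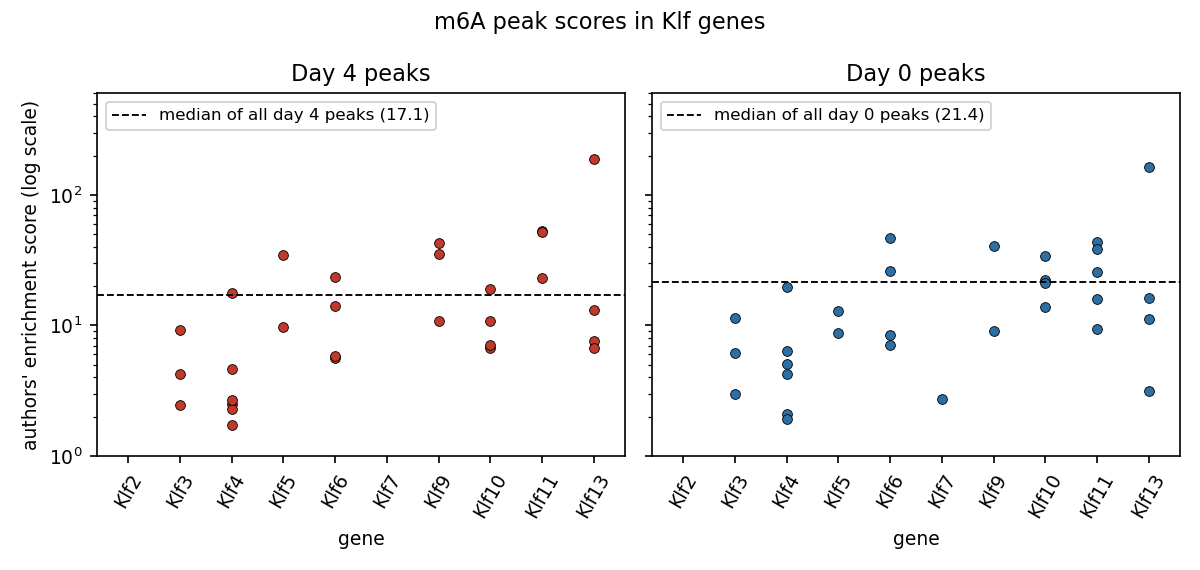
The authors' enrichment score of each Klf peak (y axis, log scale) by gene (x axis) at day 4 (left) and day 0 (right), 1 point per peak, with the median of all peaks of that day as a dashed line at 17.1 and 21.4. Klf13 holds the highest point on each day, at 189 and 163, and Klf2 holds none.

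Which sites changed in methylation between the days was asked of the authors' deposited methylation table. It lists sites at a false discovery rate under 0.05, which were 6.96% of the 36796 sites that the adjustment implies were tested, 4.79% as gains and 2.17% as losses at day 4. The Klf genes had 4 listed sites, all gains, in 3 genes, Klf4, Klf6 and Klf13. Of all 2561 listed sites 68.8% were gains. Among genes with a peak on either day, 3 of the 9 members had a called site and the same 3 a called gain, against 25.2% and 17.2% of such genes. The sources used here do not say how many Klf sites were tested, and this share was not tested against that of other genes.

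The 2 sites in Klf4 lay 100 bp apart and began 1860 and 1560 bases after the annotated 5′ end along the genome. Their place in the spliced transcript was not analysed. The site chr4:55530367-55530615 gained by 2.36 on the log scale in the authors' deposited table (false discovery rate 2.9e-07), a p smaller than which was seen in 7.11% of listed sites. The base of this logarithm is not stated. At that site the overlapping peak scored 4.64 at day 4 and 2.11 at day 0. The site chr4:55530716-55530915 gained by 1.46 on the log scale in the authors' deposited table (false discovery rate 0.0188), with peaks of 2.66 at day 4 and 1.90 at day 0 that lay within it without overlapping each other. Among genes with a listed site, 17.4% had more than 1. Both Klf4 gains thus stood at weak peaks of a transcript that fell to 67.3% of its day 0 level, and the strong stretch near its 3′ end had no listed site. For comparison, the median finite gain over the table was 1.82 on the same log scale.

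The gains in Klf6 and Klf13 overlapped no listed peak on either day, as did 28.1% of all 1763 gains. The Klf6 site chr13:5866700-5866749 gained by 3.91 on the log scale in the authors' deposited table (false discovery rate 0.00384), and a larger change was seen in 8.57% of finite gains. It lay between the Klf6 peaks, and Klf6 was not in the expression table. The Klf13 site chr7:63889049-63889098 had an infinite log fold change in the authors' deposited table, as had 152 gains in all, so its size cannot be given. Its false discovery rate was 0.0498, at the edge of the table. The largest Klf13 peak had no listed site.

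Relatives and partners of the family were taken from lists written from general knowledge. For comparison, 53.5% of the 14924 genes tested were in the expression table, 27.1% higher and 26.4% lower at day 4. Some genes of the lists may not have been tested. Of 16 other Klf and Sp factors, which bind the same kind of box, 2 fell, 0 rose and 14 were not listed, with a median of -0.48. The authors' deposited table gives Sp1 a log2 fold change of -0.50 (SE 0.16) and Klf16 one of -0.46 (SE 0.12). The files pair the symbol Klf16 with the Ensembl identifier of Glis2, so that row is uncertain, while the identifiers of all 10 members matched their symbols. Of these 16 factors, 4 had a peak at day 4 and 5 at day 0. A share over all genes, listed or not, is not given here for comparison. Of 18 cofactors and turnover factors, 7 rose, 3 fell and 8 were not listed (median 0.30). The share listed, 10 of 18, was near that of all genes tested. The acetyltransferase Kat2b (1.76, SE 0.15), the ubiquitin ligase adaptor Fbxo32 (1.72, SE 0.14) and the ubiquitin ligase Nedd4l (0.86, SE 0.10) rose, and the corepressor Ctbp2 (-0.46, SE 0.08) fell, as log2 fold changes in the authors' deposited table.

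Of 20 genes reported elsewhere as Klf targets, 9 rose, 5 fell and 6 were not listed (median 0.70). Among all genes tested, 27.1% were higher and 26.4% lower at day 4. Involucrin, Ivl (3.67, SE 0.12), the keratin Krt19 (3.21, SE 0.13) and the cornified envelope gene Sprr2a1 (3.12, SE 0.12) rose, and cyclin D1, Ccnd1 (-3.37, SE 0.11), fell, as log2 fold changes in the authors' deposited table. Sprr2a1 has near-identical copies and is uncertain. The list mixes genes that Klf proteins are known to raise with genes they are known to lower, so its count has no single direction to be read against.

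Markers of the cells in the culture were read from the same table, with medians over the listed genes of each list. Their counts stand beside 27.1% of all genes tested that were higher at day 4 and 26.4% that were lower. All 6 basal keratinocyte markers were listed, 3 higher and 3 lower (median -0.06). The median hides opposite shifts: Krt14 (1.06, SE 0.11) and Krt5 (0.96, SE 0.09) rose, while Itga6 (-0.99, SE 0.14) and Trp63 (-0.92, SE 0.11) fell, as log2 fold changes in the authors' deposited table. All 6 had peaks on both days, against 55.8% of listed genes at day 4 and 59.5% at day 0. Of 6 differentiated keratinocyte markers, 4 rose and 1 fell (median 1.47), and Lor was not listed. Ivl (3.67, SE 0.12) and Krt10 (1.47, SE 0.15) rose, as log2 fold changes in the authors' deposited table. Krt1 rose too (5.10, SE 1.54), but at a mean normalized count of only 2.65. The other rise was small, at 0.19 (SE 0.09). Krtdap, at a mean normalized count of 2147, fell (-1.73, SE 0.11). Of 10 fibroblast or feeder markers, 4 rose, 0 fell and 6 were not listed (median 3.31). Col5a1 (4.58), Postn (3.66), Acta2 (2.97) and Pdgfra (1.73) were those that rose, as log2 fold changes in the authors' deposited table, while Col1a1, Col1a2, Col3a1, Pdgfrb, Thy1 and Vim were not listed. Melanocyte markers rose for 2 of 6 and fell for 0, with log2 fold changes in the authors' deposited table of 1.65 (SE 0.21) for Mitf and 6.14 (SE 1.41) for Kit, at a mean normalized count of 4.74. Of 6 endothelial or immune markers, 1 rose and 1 fell. These markers moved alongside the Klf genes, and their part in the Klf falls was not tested. Their summed level in each day's libraries is not given here, since the files hold no value per library.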

How the data were processed

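Members and lists were chosen with earlier results of these data known. Per the labels' protocols, polyadenylated RNA was sheared by sonication, pulled down with an anti-m6A kit and sequenced from stranded libraries. HISAT2 2.1.0, DESeq2 1.18.1 and mm10 are named in the submitters' processing notes. The sources used here give neither the peak caller nor the methylation test, the strand used in counting or how the 3 replicates were joined. Each deposited peak has an enrichment score and an unadjusted p-value, per the file headers. The deposited expression table holds a mean normalized count (a signal averaged over libraries), a log2 fold change, its SE, a test statistic treated as a score and p-values, per the file headers. The deposited methylation table holds a log fold change of unstated base, used as a score, with a p-value and false discovery rate, per the file headers.

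Neither comparison table names its direction. Positive was read as higher at day 4, since, with the Klf genes left out, 93.8% of 497 listed genes with peaks at day 4 only were positive, against 4.02% of 797 with peaks at day 0 only, and likewise 98.8% of 419 sites over day 4 peaks only, against 24.4% of 119 over day 0 peaks only. With no value per library, the 12 libraries entered no fit here, and no test was added. Numbers tested were derived from adjusted p, rank and p, a step checked on simulated data. Intervals are the estimate plus or minus 1.96 SE, converted to percent of day 0. Peaks were intersected with bedtools 2.31.1. Software was Python 3.11.15, numpy 2.4.6, pandas 2.3.3 and matplotlib 3.10.9. RefSeq places 5 of the 10 members, Klf3, Klf7, Klf9, Klf10 and Klf13, over another gene's span. All 10 members are named, and from each list at most 4 genes with the largest change. Alternatives were stricter limits, a minimum change or level, other overlap rules and finite changes only.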

Additional observations from a re-analysis of the deposited data

How the results depend on the processing

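Of the 6 members that fell, 3 remained listed and lower when a change of at least 2-fold was required (3 listed, 3 lower). They were Klf5, Klf9 and Klf2, the last at a mean normalized count of 4.41. This limit takes out the smaller falls of Klf4, Klf11 and Klf13, while 46.7% of the 3164 genes left were lower. At an adjusted p under 0.01, or with a mean normalized count that reached 100, 5 were listed and 5 were lower, with Klf2 left out both times, while 50.5% of the 6778 genes left by the first limit and 53.7% of the 6404 left by the second were lower. Under each of these limits 0 members were higher. Only Klf5 and Klf9 passed every one of them. At a false discovery rate under 0.01, 2 of the 4 methylation sites remained, those at Klf6 and at chr4:55530367-55530615 in Klf4, and 3 had a finite change. At an unadjusted p under 1e-5, 8 members had a peak on each day, with 28 peaks at day 4 and 26 at day 0, and Klf7 had none. With that limit 25 day 4 peaks met a day 0 peak, with at least 50% of each peak in common 20 did, and on either strand 27 did. The shares of all peaks and of all sites under these limits are not given here, so these counts cannot be set against the whole lists. No paired analysis was possible because the files hold no value per library, and for the same reason no replicate could be left out. The precision of each fold change is that of its SE, and depth behind the scores is unknown.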
